A study of Homo sapiens with 33 samples.

Results

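Gene expression was compared between cells in which CDK9 had been targeted and cells in which it had been left intact while another cyclin-dependent kinase was knocked out. The comparison holds 8 of the 33 libraries of the series, chosen by their labels. CDK9 KO and CDK7/9 KO cells (CDK9-targeted, 4 libraries) were set against CDK1 KO and CDK7 KO cells (CDK9-intact, 4 libraries), each genotype with 1 library at 72 h and 1 at 96 h. All are cells of the line that the labels spell MDA-MD-231, a triple-negative breast cancer line. All carry a knockout, so a shared effect of making a knockout falls on both sides. CDK7/9 KO cells are labelled with both genes and every other genotype with a single gene, so the number of targeted genes is not balanced. An empty vector library at 72 h, one at 96 h and a parental library at 0 h belong to the same experiment and are given as values outside the fit. The assay, a 3′ tag method on poly(A) RNA, reads each transcript next to its 3′ end. How the genes were knocked out, the vector, the edited exon and whether cells were a pool or a clone are not given in the labels. Each genotype and time has 1 library, and separate cultures are not stated. The p-values of the main comparison therefore measure how these libraries spread around their side's mean at each time. In the tests of pairs of genotypes given below, each genotype has its own mean. Those p-values measure how its 72 and 96 h libraries depart from a shift between times shared by all genotypes, not spread among separate knockouts.

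CDK9 is the kinase of P-TEFb, the complex that releases RNA polymerase II from its pause downstream of the start site and so lets it enter productive elongation. Its partners are the cyclins T, and most of it is held inactive in cells by the 7SK RNA together with the HEXIM, LARP7 and MEPCE proteins. CDK7, part of TFIIH, phosphorylates polymerase II at the promoter and switches on other CDKs, while CDK1 drives entry into mitosis. Genes whose transcripts turn over quickly, such as cytokines and immediate-early genes, are known to respond early when CDK9 is blocked in cultured cells.

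The 8 libraries held 16985219 to 22417327 counted reads. CDK9, at chromosome 9, had 33.4 and 36.5 CPM in CDK9 KO and 34.5 and 36.8 in CDK7/9 KO cells, against 74.6 and 72.7 in CDK1 KO and 67.3 and 69.8 CPM in CDK7 KO cells, each pair of values being 72 and 96 h, as in all that follow. CDK9-targeted cells were thus well below CDK9-intact cells in every library, with a log2 fold change of -1.01 ± 0.06 (SE) and an edgeR adjusted p of 3.80e-06, and no library was near 0. The tags lie at the end of the transcript and the edited exon is not known, so this level does not show how much working kinase was left. CDK7 was low in both genotypes labelled with it, at 49.2 and 47.6 CPM in CDK9 KO and 15.7 and 17.2 CPM in CDK7/9 KO cells, against 45.7 and 47.8 CPM in CDK1 KO and 15.3 and 13.8 CPM in CDK7 KO cells, and the lower values therefore stand on both sides of the comparison. CDK1 had 183 and 163 CPM in CDK9 KO and 156 and 151 CPM in CDK7/9 KO cells, against 82.7 and 85.3 CPM in CDK1 KO and 154 and 141 CPM in CDK7 KO cells, so it was low in CDK1 KO cells alone among the 8 libraries. The 14 markers of MDA-MD-231 all averaged above 10 CPM over the 8 libraries, CPM being the counts of a gene per 1000000 counts of the scaled library. Among them IL6 was under 10 CPM in all but the CDK1 KO libraries of the 8. Of 16 markers of epithelial cells and the line labelled MDA-MD-468, 7 were too low to test, CDH1 and KRT5 among them, and of 10 immune cell markers 6 were too low and the highest mean stayed under 10 CPM. Of the 4 immune markers tested 1 fell and 0 rose, against 13.2% and 12.9% of all genes. The part of other cells in the results was not tested.

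**Figure D1:**
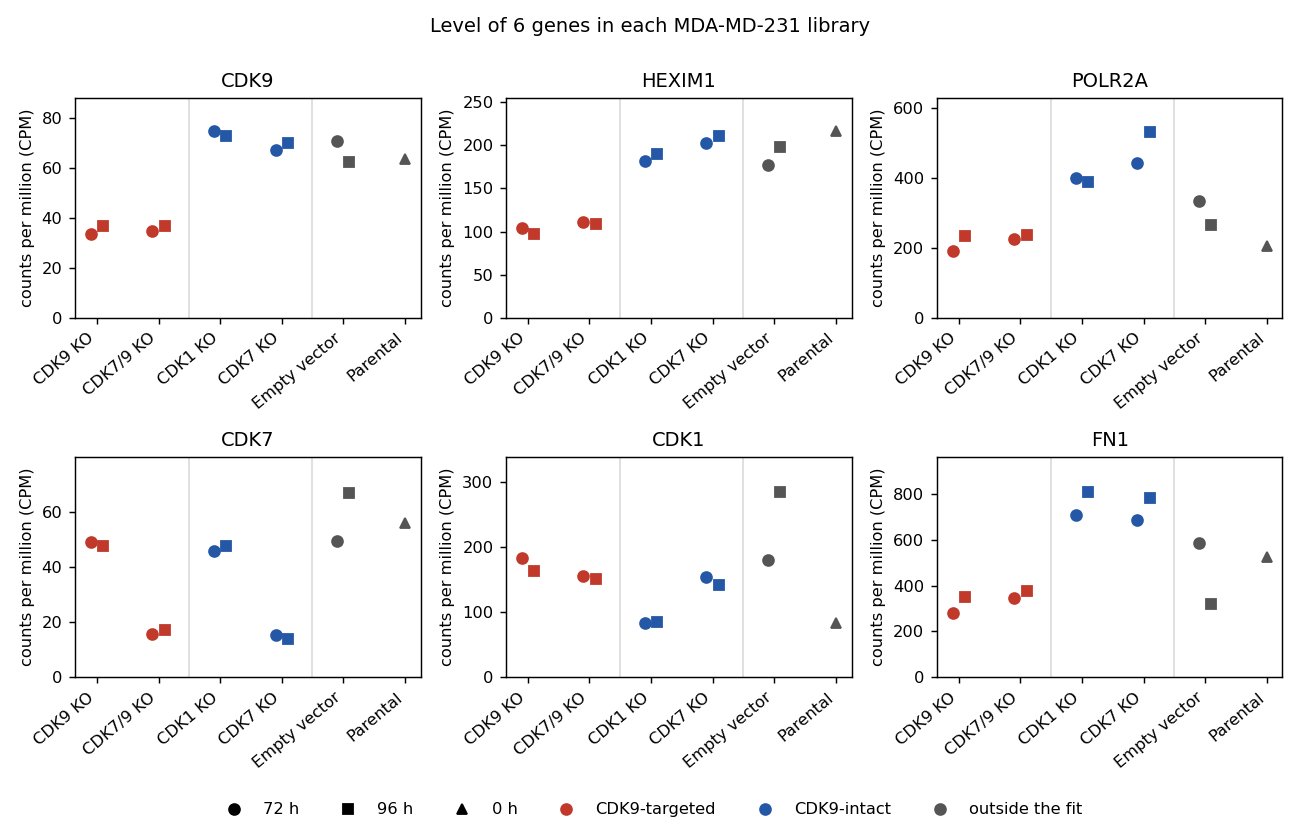
Level in CPM (y axis from 0) of 6 genes in each library. Red points are CDK9-targeted, blue points CDK9-intact and grey points lie outside the fit, circles are 72 h, squares 96 h and triangles 0 h. CDK9, HEXIM1, POLR2A and FN1 are lower in all 4 red points than in all 4 blue points, while CDK7 and CDK1 follow their own knockouts.

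Of 16162 genes tested, 4217 differed between CDK9-targeted and CDK9-intact cells at an edgeR adjusted p under 0.05, 26.1% of those tested. They were split evenly, with 2090 higher (12.9%) and 2127 lower (13.2%) in CDK9-targeted cells. Most changes were small: the median called rise was 1.30-fold and the median called fall 1.31-fold. Only 242 genes were called higher by 2-fold or more (1.50%) and 147 lower by 2-fold or more (0.910%). Without the CDK7/9 KO 96 h library 2779 genes were called. Scaled instead to the 13 mitochondrially encoded mRNAs, the libraries gave 248 genes higher and 11969 lower, with a median log2 fold change of -0.491 over all genes, so rises and falls here are relative to each library's total. In 2229 genes (13.8%) all 4 CDK9-targeted libraries lay above all 4 CDK9-intact libraries, and in 2075 (12.8%) all 4 lay below. The libraries are bulk samples scaled to their own totals, so fewer cells expressing a gene and less RNA per cell cannot be told apart. The empty vector library at 72 h, which took no part in the fit, was nearer to the CDK9-intact mean than to the CDK9-targeted mean for 3535 of the 4217 genes (83.8%). The empty vector library at 96 h was nearer to the CDK9-intact mean for 2595 of them (61.5%), and the parental library for 2533 (60.1%).

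Promoter sequences were set beside these calls because CDK9 acts on RNA polymerase II soon after it leaves the promoter. RefSeq promoters (GRCh38.p14, 250 bases before to 50 after the start) were matched by symbol to 7834 of the genes tested, 1110 of them higher and 1064 lower. The letters CCGGAAG, a core site of ETS factors, stood on either strand in 30.7% of the promoters of higher genes, against 10.8% of those of lower genes. They stood in 20.9% of all tested promoters and 10.7% of the 22114 in the table. Among the 96 promoters of genes higher by 2-fold or more the share was 12.5%, below that of all tested, so the larger rises did not carry it. The TATA box letters TATAAA went the other way, in 4.86% of promoters of higher genes, against 8.93% of those of lower genes, 5.80% of all tested and 12.7% of the whole table, and in 7.29% for genes higher by 2-fold or more. Among the 73 promoters of genes lower by 2-fold or more, 17.8% held TATAAA, 23.3% held GGAATG, the letters of the TEAD factor site (10.9% of all tested, 14.4% of the table), and 12.3% (9 promoters) held TGANTCA, the AP-1 site (4.66% of all tested, 8.05% of the table). In the 96 promoters of genes higher by 2-fold or more the TEAD letters stood in 14.6% and the AP-1 letters in 1.04%. The 73 promoters also differed in composition, with a median of 16 CG steps, against 26 for all lower genes and 27 for genes not called. Their median GC content was alike, at 65.0% against 65.3% for genes not called. The part of composition in the motif shares was not tested. Over all called genes the TEAD letters stood in 91 of 1110 promoters of higher and 138 of 1064 of lower genes, and the AP-1 letters in 4.77% and 4.89%, close to the 4.59% of genes not called. The GC box GGGCGG stood in 70.5% of promoters of higher genes and 73.9% of lower genes, against 71.4% of all tested and 43.0% of the table. For changes of 2-fold or more its share was 64.6% in higher and 57.5% in lower genes. CCAAT stood in 40.4% and 38.8% of them, against 38.1% of all tested and 36.2% of the table. The CRE letters TGACGTCA stood in 4.86% of promoters of higher and 3.10% of lower genes, against 3.66% of all tested and 2.01% of the table. Both strands were searched for each motif, matches may overlap one another, and a match is a run of letters rather than a bound site.

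The promoters of 3 genes that fell and 2 that rose show these letters in place, with the TATA, TEAD, AP-1 and ETS letters in capitals. Each sequence is written 5′ to 3′ along its gene. HEXIM1 (chr17:45148225-45148524, plus strand) has TATAAA 29 bases before the start. CCN2 (chr6:131951323-131951622, minus strand) has TATAAA 32 bases before the start and GGAATG at 169, 104 and 95 bases before it. IL11 (chr19:55370414-55370713, minus strand) has an AP-1 match 96 bases before the start. TAF12 (chr1:28643018-28643317, minus strand) has CCGGAAG at 69 and 26 bases before the start, and AP3S2 (chr15:89893945-89894244, minus strand) has it 32 bases before. TAF12 and AP3S2 were chosen after their values were seen.
HEXIM1: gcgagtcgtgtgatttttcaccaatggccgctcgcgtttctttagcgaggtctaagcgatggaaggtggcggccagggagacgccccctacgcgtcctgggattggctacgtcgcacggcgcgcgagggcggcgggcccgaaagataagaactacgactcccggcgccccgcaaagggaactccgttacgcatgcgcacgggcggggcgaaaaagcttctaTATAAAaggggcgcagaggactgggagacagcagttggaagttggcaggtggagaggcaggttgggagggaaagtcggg
CCN2: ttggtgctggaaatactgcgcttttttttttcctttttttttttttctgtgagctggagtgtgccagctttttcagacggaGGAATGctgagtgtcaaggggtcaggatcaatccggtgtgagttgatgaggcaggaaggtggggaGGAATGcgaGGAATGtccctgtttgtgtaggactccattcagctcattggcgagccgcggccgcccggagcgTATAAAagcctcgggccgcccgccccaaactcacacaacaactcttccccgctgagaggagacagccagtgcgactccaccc
IL11: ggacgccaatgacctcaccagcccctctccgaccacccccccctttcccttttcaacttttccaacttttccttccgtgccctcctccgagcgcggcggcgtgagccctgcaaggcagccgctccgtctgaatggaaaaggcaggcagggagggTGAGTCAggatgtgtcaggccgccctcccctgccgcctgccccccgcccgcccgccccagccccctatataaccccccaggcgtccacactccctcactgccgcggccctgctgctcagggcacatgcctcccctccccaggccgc
TAF12: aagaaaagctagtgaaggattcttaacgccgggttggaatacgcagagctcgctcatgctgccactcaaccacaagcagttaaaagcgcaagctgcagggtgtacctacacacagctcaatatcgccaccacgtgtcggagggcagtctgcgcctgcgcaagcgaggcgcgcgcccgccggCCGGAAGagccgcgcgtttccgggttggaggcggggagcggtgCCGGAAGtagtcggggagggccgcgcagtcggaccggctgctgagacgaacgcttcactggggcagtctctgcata
AP3S2: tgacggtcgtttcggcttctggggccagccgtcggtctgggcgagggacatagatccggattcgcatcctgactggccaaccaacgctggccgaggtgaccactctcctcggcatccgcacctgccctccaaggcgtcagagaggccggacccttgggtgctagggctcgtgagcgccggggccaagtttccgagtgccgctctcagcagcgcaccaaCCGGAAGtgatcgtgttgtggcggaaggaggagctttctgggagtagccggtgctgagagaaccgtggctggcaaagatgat

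Of these 5, TAF12, a subunit shared by TFIID and the SAGA coactivator, had 14.8 and 14.5 CPM in CDK9 KO and 14.2 and 17.7 in CDK7/9 KO cells, against 9.15 and 11.1 in CDK1 KO and 7.22 and 6.85 CPM in CDK7 KO cells. AP3S2, a subunit of the AP-3 vesicle coat, had 15.3 and 17.7 CPM in CDK9 KO and 17.1 and 16.5 in CDK7/9 KO cells, against 9.20 and 9.80 in CDK1 KO and 10.0 and 9.13 CPM in CDK7 KO cells. Both were higher in all 4 CDK9-targeted libraries, by 0.83 ± 0.14 (SE) on the log2 scale for TAF12 and 0.80 ± 0.09 (SE) for AP3S2, with edgeR adjusted p of 0.00123 and 8.39e-05. The 3 promoters with TATA, TEAD or AP-1 letters belong to genes that fell, which are described with their groups.

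Of 18 genes tested on a list of P-TEFb, its 7SK regulators and pausing factors, 4 fell (22.2%) and 3 rose (16.7%). Of all genes 13.2% fell and 12.9% rose. The median log2 fold change was -0.01, against -0.008 over all genes. The falls were HEXIM1, MEPCE, NELFA and CDK9 itself. CDK9 defines the 2 sides, so its own fall is no result about the list. HEXIM1, which holds P-TEFb inactive when bound to 7SK, had 104 and 96.8 CPM in CDK9 KO and 111 and 109 in CDK7/9 KO cells, against 182 and 189.9 in CDK1 KO and 203 and 212 CPM in CDK7 KO cells. The 2 sides did not overlap, and HEXIM1 fell, with a log2 fold change of -0.90 ± 0.06 (SE; edgeR adjusted p = 8.29e-06). Outside the fit it had 178 and 199 CPM in the empty vector and 216 CPM in the parental library, within or near the CDK9-intact range. MEPCE, the enzyme that caps 7SK RNA, averaged 59.1 ± 0.608 CPM in CDK9-targeted libraries and 80.7 ± 5.04 CPM in CDK9-intact libraries (SD, n = 4 each), with a log2 fold change of -0.45 ± 0.05 (SE) and an edgeR adjusted p of 0.000141. The cyclin partners rose. CCNT1 had 60.3 and 62.4 CPM in CDK9 KO and 60.4 and 62.4 in CDK7/9 KO cells, against 46.2 and 46.8 in CDK1 KO and 43.5 and 45.7 CPM in CDK7 KO cells. CCNT2 averaged 42.7 ± 3.63 CPM in CDK9-targeted libraries and 34.1 ± 1.21 CPM in CDK9-intact libraries (SD, n = 4 each). Their log2 fold changes were 0.43 ± 0.05 (SE) and 0.32 ± 0.07 (SE), with edgeR adjusted p of 0.000191 and 0.00645, but with libraries scaled to mitochondrial mRNAs they were -0.05 and -0.17. NELFA, a subunit of the pausing factor NELF, was -0.28 (edgeR adjusted p = 0.0221), a call that was lost without the CDK9 KO 72 h, CDK7/9 KO 96 h or CDK7 KO 72 h library, with CDK1 KO alone as the CDK9-intact side, and with both empty vector libraries added. The cyclins T and NELFA were chosen after their values were seen.

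RNA polymerase II's largest subunit stood out among 37 transcriptional kinases, cyclins and polymerase subunits, of which 5 fell (13.5%) and 6 rose (16.2%), shares near those of all genes, with a median log2 fold change of 0.02. Without the CDK9 KO 72 h or the CDK7/9 KO 96 h library 3 rose, and without either CDK9 KO library 3 fell. POLR2A, which carries the C-terminal domain that these kinases phosphorylate, had 192 and 234 CPM in CDK9 KO and 225 and 237 in CDK7/9 KO cells, against 401 and 389 in CDK1 KO and 444 and 532 CPM in CDK7 KO cells. Every CDK9-targeted library was below every CDK9-intact one, with a log2 fold change of -0.99 ± 0.09 (SE; edgeR adjusted p = 3.07e-05). The libraries outside the fit were below the CDK9-intact ones too. They had 333 and 266 CPM in the empty vector and 204 CPM in the parental library, the last of which lay within the CDK9-targeted range. CDK12, the elongation kinase that acts on polymerase II further into the gene, fell, and CCNL2, a cyclin of the CDK11 kinases, rose. Their log2 fold changes were -0.26 ± 0.05 (SE) and 0.32 ± 0.06 (SE), with edgeR adjusted p of 0.00405 and 0.0021. Under mitochondrial scaling CCNL2 was -0.16, and with both empty vector libraries added to the CDK9-intact side CDK12 was -0.20 and no longer called.

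The largest changes were ranked among called genes with a mean of at least 10 CPM over the 8 libraries. At each time, both CDK9-targeted libraries of such a gene lay on the same side of both CDK9-intact ones. A gene could pass that mean through its higher side alone. ALPP, CCNA1, RP11-80B9.1, DNAH1, B9D1 and SRR, among others, averaged under 10 CPM on their lower side. The ranking therefore describes the differences and is no test of them. The 10 largest falls so chosen were ALPP, IL6, FLG, AQP3, SYNPO, CCNA1, RP11-80B9.1, KRT81, CST4 and IL11, with log2 fold changes between -1.99 and -1.15. ALPP, placental alkaline phosphatase, had 3.80 and 4.77 CPM in CDK9 KO and 6.58 and 5.86 in CDK7/9 KO cells, against 23.6 and 24.1 in CDK1 KO and 18.9 and 17.3 CPM in CDK7 KO cells. It was the deepest fall, with a log2 fold change of -1.99 ± 0.16 (SE) and an edgeR adjusted p of 1.85e-05, and the empty vector libraries lay in between at 10.8 and 8.82 CPM. ALPP, KRT81 and CST4 have near-identical copies elsewhere in the genome, so how their reads were assigned is uncertain. IL11, a cytokine of the IL-6 family, had 66.9 and 46.0 CPM in CDK9 KO and 78.5 and 49.0 in CDK7/9 KO cells, against 144 and 119 in CDK1 KO and 151 and 113 CPM in CDK7 KO cells. It had a log2 fold change of -1.15 ± 0.07 (SE; edgeR adjusted p = 4.50e-06). The log2 fold change was -1.23 ± 0.08 (SE) for CDK9 KO over CDK1 KO and -1.06 ± 0.07 for CDK7/9 KO over CDK7 KO. CCNA1, cyclin A1, averaged 7.02 ± 1.40 CPM in CDK9-targeted libraries and 15.9 ± 1.36 CPM in CDK9-intact libraries (SD, n = 4 each) and also fell in both pairs, with log2 fold changes of -1.05 ± 0.13 and -1.32 ± 0.13 (SE). KRT81, a hair keratin, averaged 10.7 ± 0.599 CPM in CDK9-targeted libraries and 24.2 ± 4.02 CPM in CDK9-intact libraries (SD, n = 4 each). RP11-80B9.1, a gene known by its clone name, averaged 7.17 ± 1.76 CPM in CDK9-targeted libraries and 16.3 ± 4.33 CPM in CDK9-intact libraries (SD, n = 4 each).

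For IL6, FLG, SYNPO, CST4, AQP3 and ALPP the fall was larger in the CDK9 KO against CDK1 KO pair, and the test of that difference passed for each of them (edgeR adjusted p = 3.65e-06, 0.000135, 0.00029, 0.00776, 0.00885 and 0.00783). IL6 had 6.23 and 6.65 CPM in CDK9 KO and 6.78 and 6.45 in CDK7/9 KO cells, against 28.6 and 35.3 in CDK1 KO and 8.93 and 9.41 CPM in CDK7 KO cells. CDK1 KO cells were the high ones, and CDK7 KO cells lay close to the CDK9-targeted libraries and to the empty vector at 72 h (9.17 CPM). With CDK7 KO cells alone as the CDK9-intact side, the log2 fold change of IL6 was -0.49, that of FLG, the skin barrier protein filaggrin, -0.71, and that of SYNPO, an actin-associated protein, -0.70.

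The 10 largest rises chosen in the same way, between 1.36 and 1.01 on the log2 scale, were SEC31B, DNAH1, C21orf58, B9D1, CTD-2368P22.1, SLFN5, SRR, PCYOX1L, PAQR8 and APOLD1. SEC31B, an outer coat protein of COPII vesicles, had 21.3 and 27.1 CPM in CDK9 KO and 24.2 and 23.6 in CDK7/9 KO cells, against 10.3 and 9.01 in CDK1 KO and 12.2 and 6.28 CPM in CDK7 KO cells. It rose by 1.36 ± 0.15 (SE) on the log2 scale (edgeR adjusted p = 0.000107). SLFN5, a Schlafen family nuclear protein and the most abundant of the 10, had 79.1 and 86.2 CPM in CDK9 KO and 78.2 and 89.7 in CDK7/9 KO cells, against 40.2 and 46.3 in CDK1 KO and 40.3 and 34.5 CPM in CDK7 KO cells. It had a log2 fold change of 1.04 ± 0.08 (SE; edgeR adjusted p = 1.41e-05), and the empty vector had 36.0 and 41.0 CPM. SRR, serine racemase, averaged 19.2 ± 1.10 CPM in CDK9-targeted libraries and 9.42 ± 1.03 CPM in CDK9-intact libraries, and B9D1, a protein of the ciliary transition zone, averaged 15.1 ± 0.465 CPM in CDK9-targeted libraries and 7.10 ± 0.857 CPM in CDK9-intact libraries (SD, n = 4 each). DNAH1, an axonemal dynein heavy chain, averaged 14.5 ± 2.51 CPM in CDK9-targeted libraries and 6.20 ± 1.08 CPM in CDK9-intact libraries (SD, n = 4 each). None of the 10 differed between the pairs at an edgeR adjusted p under 0.05. All but SLFN5 averaged under 30 CPM on either side, and PAQR8, a membrane progestin receptor, reached 27.3 CPM in the parental library, above its CDK9-targeted values. Other rises were SIAE, a sialic acid esterase, at 46.5 ± 1.61 CPM in CDK9-targeted libraries and 24.4 ± 1.34 CPM in CDK9-intact libraries (log2 fold change 0.93 ± 0.07 (SE), edgeR adjusted p = 8.29e-06), and MYL12A, a myosin regulatory light chain, at 492 ± 20.9 CPM in CDK9-targeted libraries and 309 ± 6.20 CPM in CDK9-intact libraries (log2 fold change 0.67 ± 0.05 (SE), edgeR adjusted p = 9.44e-06). MYL12A has a near-identical neighbour, so its reads are uncertain, its parental value of 466 CPM was close to the CDK9-targeted ones, and its rise was 0.19 and not called under mitochondrial scaling. SIAE and MYL12A were chosen after their values were seen.

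Matrix and adhesion genes fell more often than they rose. Of 43 collagen, laminin, integrin and matrix genes tested, 14 fell (32.6%) and 4 rose (9.30%), against 13.2% and 12.9% of all genes. Their median log2 fold change was -0.18. It was -0.27 for CDK9 KO over CDK1 KO, with 23 called lower and 4 higher. For CDK7/9 KO over CDK7 KO it was -0.13, with 13 lower and 6 higher. The edgeR test of the difference between pairs passed for 11 of the 43, against 3.64% of all genes. FN1, fibronectin, had 282 and 349.7 CPM in CDK9 KO and 345 and 376 in CDK7/9 KO cells, against 708 and 810.3 in CDK1 KO and 688 and 782 CPM in CDK7 KO cells. The groups were far apart, with a log2 fold change of -1.14 ± 0.06 (SE; edgeR adjusted p = 3.31e-06), but the empty vector library at 96 h, at 318 CPM, lay within the CDK9-targeted range while that at 72 h had 587 CPM. COL1A1, a chain of type I collagen, averaged 10.5 ± 1.52 CPM in CDK9-targeted libraries and 17.7 ± 1.97 CPM in CDK9-intact libraries (SD, n = 4 each; log2 fold change -0.76 ± 0.09 (SE), edgeR adjusted p = 0.000163). Of 23 targets of YAP and TEAD, the coactivator and DNA-binding factors of the Hippo pathway, 10 fell (43.5%) and 1 rose (4.35%), with a median of -0.22. The pairs had medians of -0.20 and -0.22, and 6 of the 23 passed the test of the difference between them. THBS1, thrombospondin 1, had 1626 and 1927 CPM in CDK9 KO and 1659 and 1787 in CDK7/9 KO cells, against 2729.9 and 2923 in CDK1 KO and 2537 and 2903 CPM in CDK7 KO cells. Its log2 fold change was -0.67 ± 0.05 (SE; edgeR adjusted p = 9.44e-06), and the pairs gave -0.67 ± 0.05 and -0.65 ± 0.05 (SE). CCN2, the connective tissue growth factor whose promoter is shown above, had 489 and 453 CPM in CDK9 KO and 412 and 420.2 in CDK7/9 KO cells, against 647 and 653 in CDK1 KO and 845 and 819 CPM in CDK7 KO cells. Its log2 fold change of -0.74 ± 0.09 (SE; edgeR adjusted p = 0.000202) was larger in the CDK7/9 KO against CDK7 KO pair, and the difference between pairs was -0.54 (edgeR adjusted p = 0.00029).

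KRT18, KRT8 and KRT7, keratins of simple epithelia chosen after their values were seen and not a list of keratins, fell. KRT18 averaged 265 ± 27.8 CPM in CDK9-targeted libraries and 446 ± 13.9 CPM in CDK9-intact libraries, KRT8 averaged 364 ± 42.0 CPM in CDK9-targeted libraries and 609 ± 29.8 CPM in CDK9-intact libraries and KRT7 averaged 109 ± 6.76 CPM in CDK9-targeted libraries and 185 ± 13.7 CPM in CDK9-intact libraries (SD, n = 4 each). Their log2 fold changes were -0.75 ± 0.07 (SE), -0.74 ± 0.07 (SE) and -0.76 ± 0.06 (SE), with edgeR adjusted p of 2.94e-05, 6.01e-05 and 1.94e-05. KRT19, on the list of epithelial markers, had 153 and 116 CPM in CDK9 KO and 194 and 167 in CDK7/9 KO cells, against 268 and 242 in CDK1 KO and 361 and 339.9 CPM in CDK7 KO cells, with a log2 fold change of -0.95 ± 0.14 (SE; edgeR adjusted p = 0.000508). Of the 9 epithelial markers tested, 4 fell and 0 rose, and of the 14 MDA-MD-231 markers 7 fell and 1 rose (4 fell without either CDK7/9 KO library). Over all genes 13.2% fell and 12.9% rose. MCAM, a melanoma and mesenchymal adhesion molecule, and PTX3, a secreted pentraxin, both also chosen after their values were seen, fell with log2 fold changes of -0.99 ± 0.06 (SE) and -1.14 ± 0.07 (SE; edgeR adjusted p = 5.62e-06 and 5.62e-06).

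Cholesterol and fatty acid synthesis was the list with the largest share of falls among those tested. Of 30 genes tested, 19 fell (63.3%, against 13.2% of all genes), 0 rose, and the median was -0.30. ACSS2, which makes acetyl-CoA from acetate, had 32.1 and 28.5 CPM in CDK9 KO and 32.9 and 29.1 in CDK7/9 KO cells, against 44.0 and 42.7 in CDK1 KO and 50.9 and 46.2 CPM in CDK7 KO cells. Its log2 fold change was -0.59 ± 0.07 (SE; edgeR adjusted p = 0.000132). MVK, mevalonate kinase, averaged 28.98 ± 1.16 CPM in CDK9-targeted libraries and 40.4 ± 3.36 CPM in CDK9-intact libraries and HMGCS1, the enzyme that makes HMG-CoA for sterols, averaged 44.7 ± 5.40 CPM in CDK9-targeted libraries and 64.9 ± 5.03 CPM in CDK9-intact libraries (SD, n = 4 each). Their log2 fold changes were -0.48 ± 0.07 (SE) and -0.54 ± 0.08 (SE; edgeR adjusted p = 0.000491 and 0.000654). The pairs gave like medians, -0.32 for CDK9 KO over CDK1 KO and -0.34 for CDK7/9 KO over CDK7 KO, and no member passed the test of a difference between pairs. With CDK1 KO alone as the CDK9-intact side 13 of 30 fell, with CDK7 KO alone 24 of 30. Leaving out 1 library gave 12 to 21 falls, fewest without the CDK9 KO 72 h library. DHCR7, which makes the last step of one branch of cholesterol synthesis and was chosen after its values were seen, had 44.6 and 46.6 CPM in CDK9 KO and 61.2 and 58.7 in CDK7/9 KO cells, against 73.1 and 74.0 in CDK1 KO and 105 and 84.6 CPM in CDK7 KO cells. In the parental library it had 244 CPM, above all others. With both empty vector libraries added to the CDK9-intact side 7 of the list fell. In the empty vector library at 96 h DHCR7 had 32.6 CPM, below every knockout library, and at 72 h 72.5 CPM.

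Mitochondrially encoded mRNAs were the one list that rose as a whole. All 13 were called higher, against 12.9% of all genes, with a median of 0.48. In 12 of them all 4 CDK9-targeted libraries lay above all 4 CDK9-intact ones, against 13.8% of all genes. MT-ND2, a subunit of complex I, had 2926 and 3112 CPM in CDK9 KO and 3202 and 2875 in CDK7/9 KO cells, against 2235 and 2108 in CDK1 KO and 2069.9 and 2241 CPM in CDK7 KO cells. It rose by 0.49 ± 0.05 (SE) on the log2 scale (edgeR adjusted p = 0.000101). MT-CO2, a subunit of complex IV, averaged 6859 ± 896 CPM in CDK9-targeted libraries and 4503 ± 325 CPM in CDK9-intact libraries (SD, n = 4 each; log2 fold change 0.60 ± 0.07 (SE), edgeR adjusted p = 0.000174). The 13 mRNAs together held 5.04% to 5.98% of counts in CDK9-targeted libraries and 3.72% to 4.01% in CDK9-intact ones, and 3.77% and 2.60% in the empty vector at 72 and 96 h and 5.05% in the parental library. Of 49 nuclear genes of oxidative phosphorylation 7 rose (14.3%) and 3 fell (6.12%), with a median log2 fold change of -0.0011. Without the CDK9 KO 72 h library 3 rose and without the CDK7/9 KO 96 h library 2, and 1 fell on leaving out any CDK9-targeted or CDK7 KO library. Of 76 cytosolic ribosomal protein genes 4 rose (5.26%) and 5 fell (6.58%), with a median of -0.02. Without either CDK9 KO library or the CDK7/9 KO 96 h library 1 rose, while 8 fell without the CDK9 KO 72 h library and 3 without either CDK7/9 KO library.

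**Figure D2:**
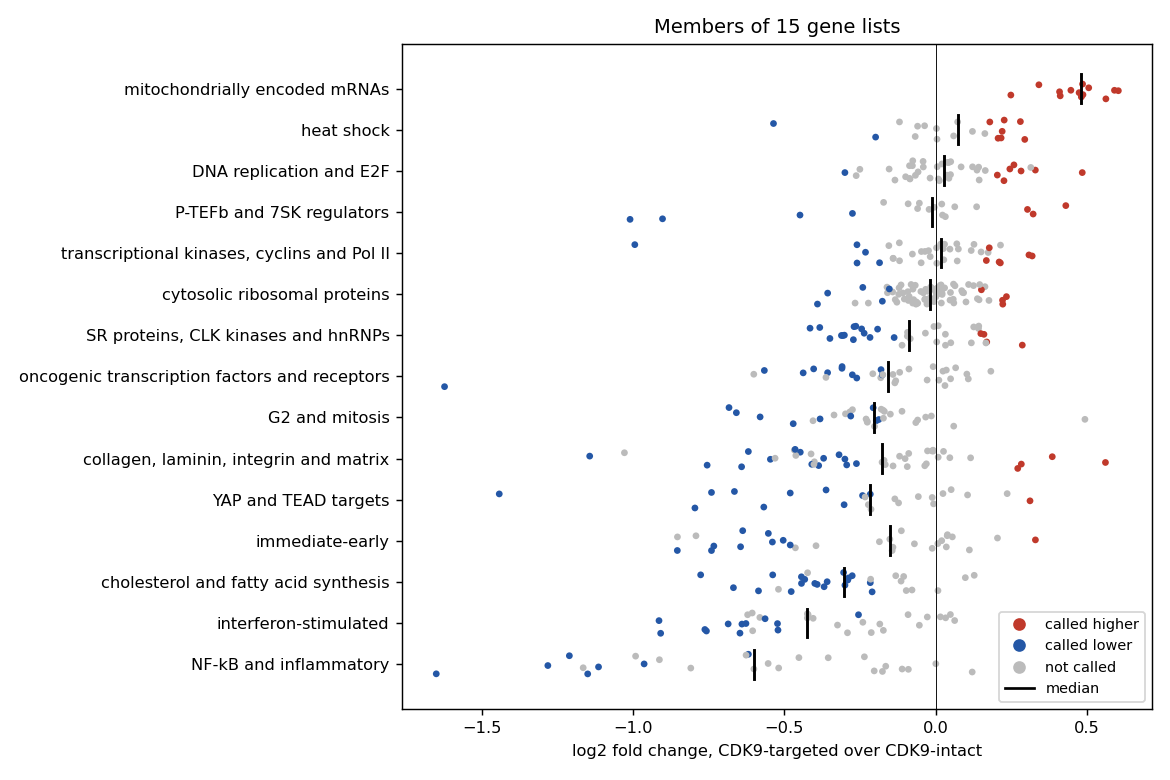
Log2 fold change of CDK9-targeted over CDK9-intact cells (x axis) for the tested members of 15 gene lists, 1 point a gene, red where called higher, blue where called lower and grey where not called, with the median as a black bar. The 13 mitochondrially encoded mRNAs all lie right of 0 (with libraries scaled to those mRNAs they would lie around it), and the medians of the NF-kB, interferon and cholesterol lists lie farthest left, at -0.60, -0.42 and -0.30.

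Inflammatory genes showed the lowest median of the lists, -0.60 over 25 NF-kB and inflammatory genes. Of these 7 fell (28.0%) and 0 rose, against 13.2% and 12.9% of all genes, but the pairs disagreed. For CDK9 KO over CDK1 KO the median was -0.95, with 22 called lower. For CDK7/9 KO over CDK7 KO it was -0.04, with 5 lower and 1 higher. Of the 25 genes, 17 passed the test of the difference between pairs (edgeR, against 3.64% of all genes). ICAM1, an adhesion molecule for leukocytes, had 67.5 and 62.4 CPM in CDK9 KO and 74.8 and 66.3 in CDK7/9 KO cells, against 121 and 131 in CDK1 KO and 71.5 and 64.5 CPM in CDK7 KO cells. CDK1 KO cells alone were high, and the empty vector had 70.7 and 58.5 CPM. BIRC3, an NF-kB-induced inhibitor of cell death, had 40.2 and 45.2 CPM in CDK9 KO and 34.3 and 33.7 in CDK7/9 KO cells, against 75.7 and 98.1 in CDK1 KO and 28.1 and 31.4 CPM in CDK7 KO cells. Its log2 fold change was -1.02 ± 0.08 (SE) for CDK9 KO over CDK1 KO and 0.20 ± 0.09 for CDK7/9 KO over CDK7 KO, and -0.60 ± 0.32 (SE) over all 8 libraries (edgeR adjusted p = 0.188). CXCL8, the neutrophil chemokine, had 22.9 and 19.1 CPM in CDK9 KO and 16.4 and 18.2 in CDK7/9 KO cells, against 47.2 and 51.9 in CDK1 KO and 28.7 and 21.1 CPM in CDK7 KO cells, the CDK1 KO libraries again highest of the 8, with 28.9 and 60.1 CPM in the empty vector. With CDK7 KO alone as the CDK9-intact side the list had 6 falls and 3 rises with a median of 0.07, and with CDK1 KO alone 23 falls of 26 tested. Without the CDK7 KO library of 72 or 96 h 16 and 17 fell. ICAM1 and CXCL8 were chosen after their values were seen.

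Interferon-stimulated genes behaved likewise, with 12 of 33 falling (36.4%) and 0 rising (median -0.42), against 13.2% and 12.9% of all genes. The list median was -0.63 for CDK9 KO over CDK1 KO and -0.16 for CDK7/9 KO over CDK7 KO. ISG15, a ubiquitin-like protein, had 41.4 and 37.0 CPM in CDK9 KO and 36.4 and 38.7 in CDK7/9 KO cells, against 68.3 and 79.0 in CDK1 KO and 47.9 and 52.1 CPM in CDK7 KO cells, and the difference between pairs passed (edgeR adjusted p = 0.0188). OAS2, an RNA-sensing synthetase, had 34.7 and 35.6 CPM in CDK9 KO and 28.5 and 28.5 in CDK7/9 KO cells, against 55.1 and 59.0 in CDK1 KO and 41.6 and 43.3 CPM in CDK7 KO cells and fell in both pairs, with log2 fold changes of -0.70 ± 0.07 and -0.57 ± 0.08 (SE). Without the CDK7/9 KO 96 h library 3 of the list were called lower, without the CDK9 KO 96 h, CDK7/9 KO 72 h or CDK1 KO 72 h library 7, and without the CDK7 KO 96 h library 21. With CDK7 KO alone as the CDK9-intact side 5 fell and 3 rose, and with CDK1 KO alone 25 fell and 1 rose. Of 30 G2 and mitosis genes 9 fell (30.0%) and 0 rose (median -0.20). For CDK9 KO over CDK1 KO 23 were called lower, and 7 for CDK7/9 KO over CDK7 KO, against 15.6% and 12.4% of all genes. The test of the difference between pairs passed for 12 of the 30, against 3.64% of all genes. Without the CDK7 KO 72 h library 22 fell, with CDK7 KO alone as the CDK9-intact side 6, and with CDK1 KO alone 25. CENPE, a kinetochore motor, had 73.2 and 64.7 CPM in CDK9 KO and 70.3 and 63.3 in CDK7/9 KO cells, against 104 and 95.5 in CDK1 KO and 99.0 and 106 CPM in CDK7 KO cells and fell in both pairs, with log2 fold changes of -0.53 ± 0.07 and -0.62 ± 0.07 (SE). NEK2, a centrosome kinase, averaged 44.5 ± 4.34 CPM in CDK9-targeted libraries and 71.3 ± 15.2 CPM in CDK9-intact libraries (SD, n = 4 each) and fell more in the first pair (log2 fold changes -0.85 ± 0.07 for CDK9 KO over CDK1 KO and -0.46 ± 0.07 for CDK7/9 KO over CDK7 KO, edgeR adjusted p of the difference 0.0291). Of 29 immediate-early genes 9 fell (31.0%) and 1 rose (median -0.15), and 11 passed the test of the difference, against 3.64% of all genes. With CDK7 KO alone as the CDK9-intact side 9 fell and 11 rose, and with CDK1 KO alone 19 fell and 2 rose. FOSL2, an AP-1 subunit, had 244 and 219.7 CPM in CDK9 KO and 261 and 230.7 in CDK7/9 KO cells, against 355 and 341 in CDK1 KO and 328 and 329.5 CPM in CDK7 KO cells with a log2 fold change of -0.50 ± 0.05 (SE; edgeR adjusted p = 7.63e-05). EGR1, an early growth response factor chosen after its values were seen, had 111 and 118 CPM in CDK9 KO and 60.0 and 68.7 in CDK7/9 KO cells, against 171 and 212 in CDK1 KO and 58.8 and 51.3 CPM in CDK7 KO cells, so that CDK1 KO cells were the highest and both CDK7-targeted genotypes the lowest (edgeR adjusted p = 0.419 over the 8 libraries).

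**Figure D3:**
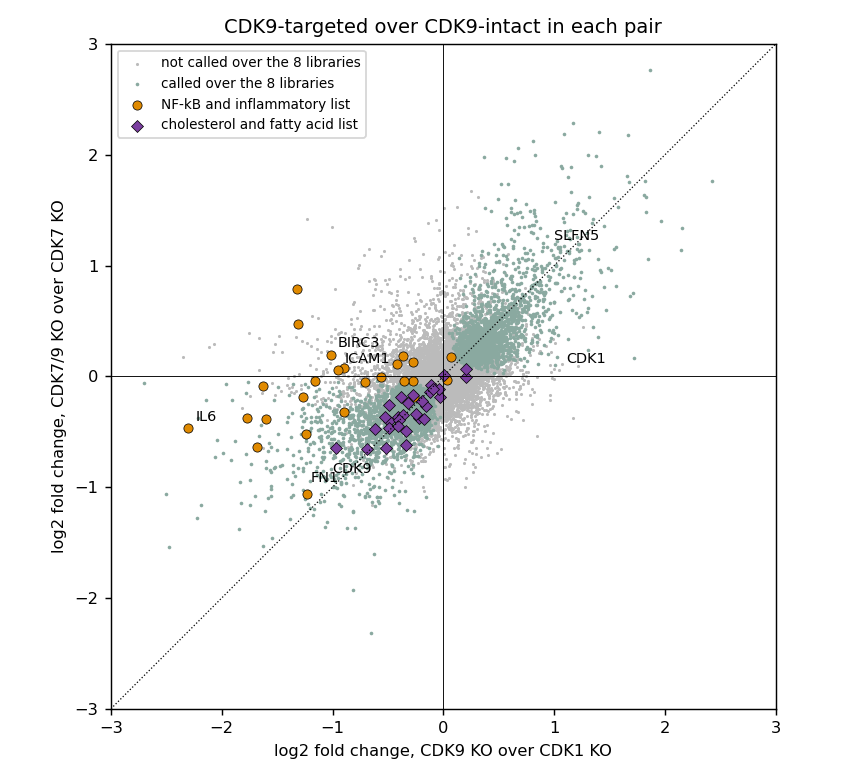
Log2 fold change of CDK7/9 KO over CDK7 KO (y axis) against that of CDK9 KO over CDK1 KO (x axis) for genes of at least 1 CPM, with genes called over the 8 libraries in green, the NF-kB list in orange, the cholesterol list as purple diamonds and a dotted line of equal change. Most NF-kB genes lie farther from 0 on the x axis than on the y axis, while the cholesterol genes lie along the dotted line; 6 of 14183 genes lie outside the axes.

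The pairs share no library, which allows them to be set side by side. CDK9 KO over CDK1 KO gave 4990 calls of 16658 genes (30.0%), 2394 higher (14.4%) and 2596 lower (15.6%), by edgeR at an adjusted p under 0.05. CDK7/9 KO over CDK7 KO gave 4114 (24.7%), 2054 higher (12.3%) and 2060 lower (12.4%). Among the 16162 genes of the 8-library fit, the pairs had 4910 and 4090 calls. Of those genes, 2378 were called in both pairs in the same direction, and 44 in opposite directions. The 2378 are 48.4% of the 4910 and 58.1% of the 4090. Of the first pair's 4910 calls 87.8% had the same sign in the second pair, against 70.3% of the 16162 genes. The difference between pairs passed for 606 genes (3.64%), 382 with a higher (2.29%) and 224 with a lower value (1.34%) in the CDK7-targeted pair, and 181 of them were among the 4217 calls. Among the 606 was CDK1, with a log2 fold change of 1.04 ± 0.06 for CDK9 KO over CDK1 KO and 0.06 ± 0.06 for CDK7/9 KO over CDK7 KO (adjusted p of the difference 7.07e-07), and another was LAPTM5, a lysosomal membrane protein chosen after its values were seen, with 83.6 and 67.9 CPM in CDK9 KO and 81.0 and 62.7 in CDK7/9 KO cells, against 192 and 177 in CDK1 KO and 103 and 81.5 CPM in CDK7 KO cells. LAPTM5 was highest in the CDK1 KO libraries and fell in both pairs (log2 fold changes -1.29 ± 0.07 and -0.36 ± 0.07). Without 1 of its own libraries a pair had fewer calls: CDK9 KO over CDK1 KO had 3092 and 2574 without the CDK1 KO library of 72 or 96 h, and CDK7/9 KO over CDK7 KO had 1838 and 1552 without the CDK7/9 KO library of 72 or 96 h and 2566 without the CDK7 KO library of 96 h. The difference between pairs had 73 and 127 calls without the CDK7/9 KO library of 72 or 96 h, and 319 and 135 without the CDK1 KO library of 72 or 96 h. Between times, 0 genes had a CDK9 difference at 96 h that differed from that at 72 h by edgeR, with 261 at an unadjusted p under 0.05 and 0 by DESeq2. That fit had no term for genotype, so lasting differences between the genotypes of a side counted as spread. The 0 therefore does not show that the difference was equal at both times. At 72 h alone 532 genes were called and at 96 h alone 1060.

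RNA-binding proteins of splicing fell more often than they rose. Of 34 SR proteins, CLK kinases and hnRNPs 14 fell (41.2%, against 13.2% of all genes) and 4 rose (11.8%, against 12.9%), with a median of -0.09 and no member that passed the test of the difference between pairs. Without the CDK9 KO 72 h, CDK7/9 KO 96 h or CDK1 KO 96 h library 1 rose. HNRNPDL had 154 and 152 CPM in CDK9 KO and 144 and 151 in CDK7/9 KO cells, against 188 and 202 in CDK1 KO and 214 and 199 CPM in CDK7 KO cells with a log2 fold change of -0.42 ± 0.05 (SE; edgeR adjusted p = 0.000225), and the abundant HNRNPA2B1 averaged 852 ± 44.1 CPM in CDK9-targeted libraries and 1085 ± 61.8 CPM in CDK9-intact libraries (SD, n = 4 each; log2 fold change -0.35 ± 0.05 (SE)). Oncogenic transcription factors and receptors fell in 11 of 32 cases (34.4%, against 13.2% of all genes) and rose in 0 (median -0.16), with 7 falls without the CDK9 KO 96 h and 6 without the CDK7/9 KO 96 h library. TEAD4, a DNA-binding partner of YAP, averaged 26.5 ± 1.94 CPM in CDK9-targeted libraries and 39.3 ± 1.03 CPM in CDK9-intact libraries and NOTCH1, a cell fate receptor, averaged 62.8 ± 1.91 CPM in CDK9-targeted libraries and 83.0 ± 5.11 CPM in CDK9-intact libraries (SD, n = 4 each), with log2 fold changes of -0.57 ± 0.07 (SE) and -0.40 ± 0.06 (SE; edgeR adjusted p = 0.000183 and 0.000505). NOTCH1 was -0.24 and no longer called with both empty vector libraries added.

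Stress, DNA replication and repair genes had small medians. Of 19 heat shock genes 7 rose (36.8%, against 12.9% of all genes) and 2 fell (10.5%; median log2 fold change 0.07), with 4 rising without the CDK7/9 KO 96 h library and 0 under mitochondrial scaling. DNAJB6, a co-chaperone, averaged 421 ± 23.3 CPM in CDK9-targeted libraries and 347 ± 23.4 CPM in CDK9-intact libraries (SD, n = 4 each) and rose, while HSPB1, a small heat shock protein, fell, with log2 fold changes of 0.28 ± 0.05 (SE) and -0.54 ± 0.07 (SE; edgeR adjusted p = 0.00168 and 0.000333). Of 40 DNA replication and E2F genes 7 rose (17.5%, against 12.9% of all genes) and 1 fell (2.50%, against 13.2%; 0 rose under mitochondrial scaling). Among the rises was E2F1, a cell cycle transcription factor, with a log2 fold change of 0.33 ± 0.06 (SE). The pairs differed, with 16 of this list higher and 2 lower for CDK9 KO over CDK1 KO. For CDK7/9 KO over CDK7 KO 5 were higher and 5 lower. Of 32 homologous recombination and Fanconi genes 6 rose (18.8%) and 3 fell (9.38%; 1 rose under mitochondrial scaling). Here 9 were higher and 2 lower for CDK9 KO over CDK1 KO, against 5 and 5 for CDK7/9 KO over CDK7 KO. FANCF, of the Fanconi core complex, and RAD54B, a recombination helicase, had log2 fold changes of 0.86 ± 0.15 (SE) and -0.85 ± 0.17 (SE). Of 24 p53 targets 7 fell (29.2%) and 1 rose, and 4 fell without either CDK9 KO library or the CDK7/9 KO 96 h library. SAT1, which acetylates spermidine, was among the falls with a log2 fold change of -0.61 ± 0.08 (SE; edgeR adjusted p = 0.00026). Of 9 anti-apoptotic genes 1 rose and 0 fell. MCL1, the short-lived BCL-2 family protein often lost when CDK9 is inhibited, had 582 and 537 CPM in CDK9 KO and 518 and 498 in CDK7/9 KO cells, against 457 and 448 in CDK1 KO and 512 and 438 CPM in CDK7 KO cells. Its log2 fold change was 0.20 ± 0.06 (SE; edgeR adjusted p = 0.0187), a call that was lost without either CDK9 KO library or the CDK1 KO 72 h library and turned to -0.28 under mitochondrial scaling. Among 15 histone genes 3 rose and 1 fell, H2AC6 rising by 0.59 ± 0.08 (SE) on the log2 scale, and among 14 G1 genes 2 rose and 0 fell, CCND1, cyclin D1, by 0.27 ± 0.06 (SE) (0 rose in either list under mitochondrial scaling). The lists of integrated stress, hypoxia, lysosome, snoRNA host and pro-apoptotic genes had 3 rises and 2 falls of 25, 0 and 6 of 35, 4 and 5 of 30, 2 and 2 of 20, and 1 and 3 of 19, against 12.9% higher and 13.2% lower of all genes. On leaving out 1 library the rises ranged over 1 to 3, 0 to 3, 2 to 5, 0 to 5 and 1 to 2 in these lists, and the falls over 1 to 3, 4 to 7, 5 to 5, 1 to 2 and 0 to 2. The fewest rises in the stress, lysosome and snoRNA host lists came without the CDK9 KO 72 h library, among others. The most in the hypoxia and snoRNA host lists came without the CDK7 KO and the CDK1 KO library of 96 h, and no pro-apoptotic gene fell without either CDK9 KO, the CDK7/9 KO 96 h or the CDK7 KO 96 h library.

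Gene length and type went with the direction of change. Protein-coding genes under 10 kb in GENCODE 29 were higher in 15.7% and lower in 13.8% of cases (2248 genes). Those of 100 to 300 kb were higher in 8.06% and lower in 20.9% (2048 genes), and those over 300 kb were higher in 4.85% and lower in 23.2% (495 genes, median -0.145). Within protein-coding genes of at least 10 CPM and over 300 kb, 27.3% were lower and 4.55% higher, so the pattern was not limited to weakly expressed genes. By library, however, the medians of these 286 genes against the CDK9-intact mean were -0.102, -0.114, -0.055 and -0.138 in CDK9-targeted libraries, against -0.031 and -0.110 in CDK1 KO and 0.088 and 0.035 in CDK7 KO libraries. CDK1 KO at 96 h thus lay among the CDK9-targeted values. The empty vector at 96 h had -0.225 and at 72 h -0.040. Among noncoding types, antisense genes were higher in 25.0% and lower in 2.00% of cases (300 genes, median 0.238), lincRNAs higher in 16.7% and lower in 6.86% (306 genes) and processed pseudogenes higher in 1.43% and lower in 6.23% (770 genes). Antisense genes were weakly expressed, with a median of 1.79 CPM against 19.2 CPM over all genes. The strand setting of the counting is not known, so their reads cannot be told apart from those of the genes they overlap.

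**Figure D4:**
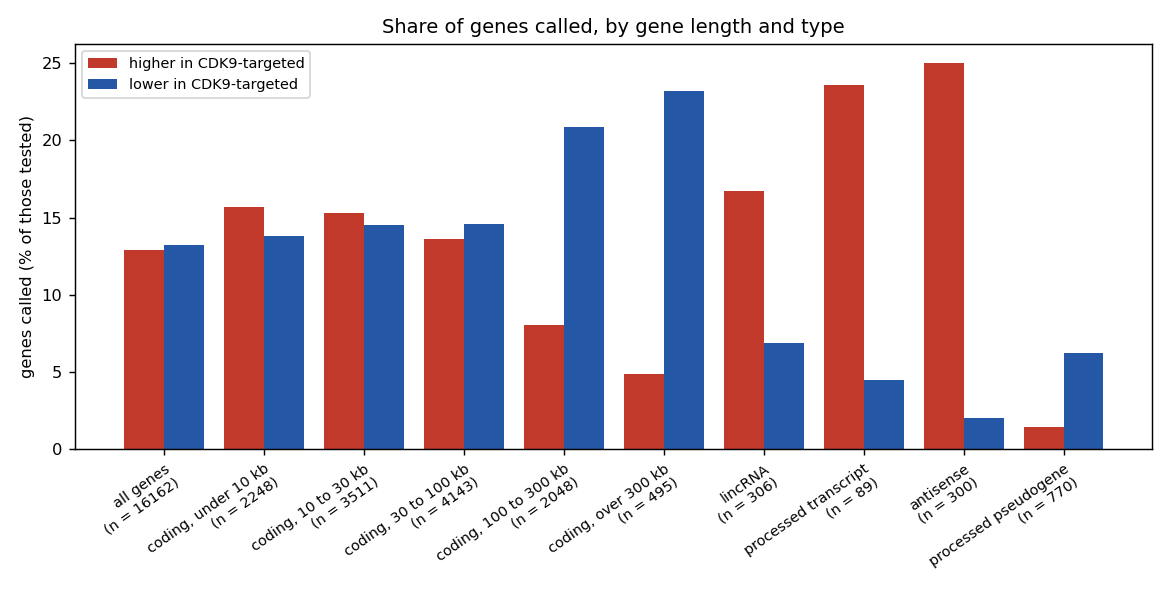
Share of tested genes called higher (red) or lower (blue) in CDK9-targeted cells, in percent on the y axis, by length of protein-coding genes and by type of noncoding gene, with the number tested under each. Among the coding classes the shares are farthest apart over 300 kb, with red at 4.85% and blue at 23.2%, while in antisense genes red is 25.0% and blue 2.00%.

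Genes between CDK9 and the end of its chromosome arm were called lower in 34.8% of cases, against 13.2% of all genes. CDK9 lies at chr9:127785679-127790787 on GRCh38 (plus strand, GENCODE 29), near the end of the long arm. Of 164 tested genes between CDK9 and that end 57 were lower (34.8%) and 12 higher (7.32%), with a median of -0.166, against 59 lower (14.5%) and 42 higher (10.3%) of the 408 genes on the other side (median -0.042). In the 122 distal genes of at least 10 CPM, the median log2 ratio to the CDK9-intact mean was -0.171, -0.157, -0.170 and -0.135 in the 4 CDK9-targeted libraries, against 0.015, -0.004, 0.005 and -0.018 in the 4 CDK9-intact ones. The groups did not overlap, and over all 164 genes the pairs had medians of -0.190 (CDK9 KO over CDK1 KO) and -0.130 (CDK7/9 KO over CDK7 KO). Outside the fit the value was 0.000 in the empty vector at 72 h, -0.029 in the parental library and -0.195 in the empty vector at 96 h, a library in which CDK9 was not low (62.4 CPM). On chromosome 10 beyond CDK1 the median was 0.069 over 389 genes, 0.184 for CDK9 KO over CDK1 KO and -0.028 for CDK7/9 KO over CDK7 KO. On chromosome 5 beyond CDK7, which is targeted on both sides, the median over 481 genes was -0.013. Chromosome 12, which holds none of the 3 genes, also had 21.8% of its 756 genes lower. The cause of these falls was not tested.

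**Figure D5:**
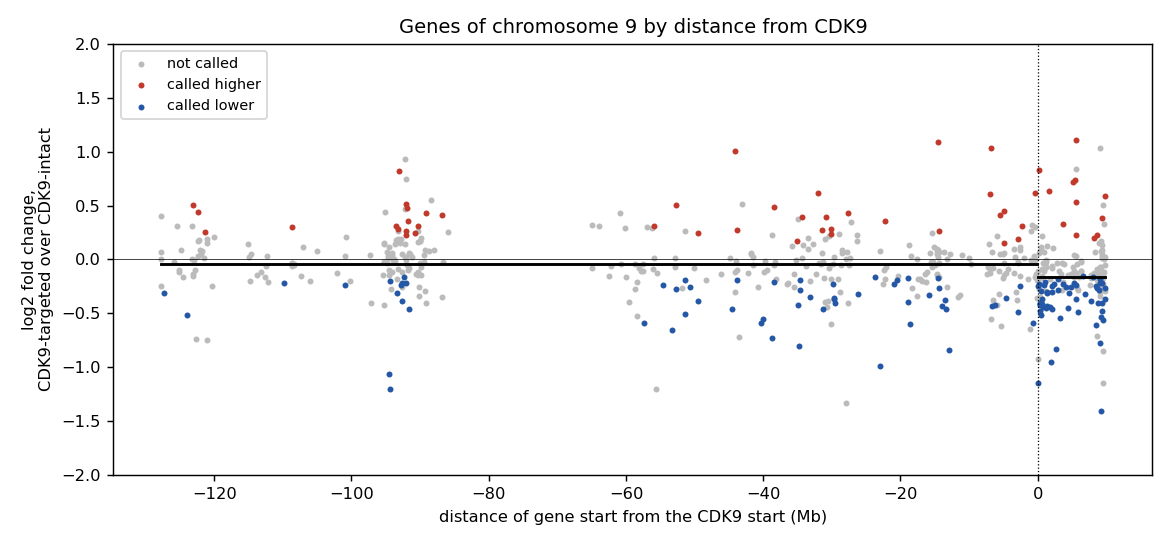
Log2 fold change of CDK9-targeted over CDK9-intact cells (y axis, 1 gene beyond its range) for the genes of chromosome 9 by distance of their start from that of CDK9 in megabases (x axis, dotted line at CDK9), red where called higher, blue where called lower and grey where not called. The black lines are the medians on each side, -0.042 before CDK9 and -0.166 beyond it.

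The same genes were looked up in the 22 libraries of the inhibitor experiment of the series, in which SY200, V50 or both together (SY200/V50) were given for 3, 6 and 12 h to the same line and to the one labelled MDA-MD-468. The series names a CDK7 and a CDK9 inhibitor, and the labels do not say which name is which. Each inhibitor value is the mean of the effects at 3, 6 and 12 h over both lines, with line as a term of the fit. The 2 lines are the only repeats of a treatment and time. Against DMSO and parental cells, V50 changed 4225 of 18911 genes (22.3%; 1972 higher, 10.4%, and 2253 lower, 11.9%) and SY200 changed 375 (1.98%; 183 higher, 0.968%, and 192 lower, 1.02%) by edgeR at an adjusted p under 0.05. The SY200 count depends on the setting, at 28 with DMSO alone as the control and 986 by DESeq2. Of 2056 genes called higher in CDK9-targeted cells and present in both tables, 68.1% had a positive log2 fold change with V50, against 30.4% of 2112 lower genes and 46.9% of all 15755. With SY200 the shares were 67.3%, 28.9% and 46.3%, and with both together they were 62.9%, 45.3% and 51.0%. V50 calls covered 451 higher genes in the same direction and 102 in the opposite one, and 516 lower genes in the same direction and 87 in the opposite one. The genes called in the same direction made up 28.2% of V50's 1600 higher and 24.4% of its 2119 lower genes in both tables. They were 21.9% of the higher and 24.4% of the lower genes of CDK9-targeted cells, against 10.2% called higher and 13.4% called lower by V50 over all genes in both tables. With both inhibitors together, 48.2% of 18911 genes were called, 24.0% higher and 24.2% lower. In that treatment 732 of the higher genes were called higher and 395 lower, and 689 of the lower genes were called lower and 443 higher.

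Single genes are given on the same log2 scale, again as means over the times and over both lines. HEXIM1 fell with V50, with a log2 fold change of -2.47 ± 0.16 (SE; edgeR adjusted p = 3.22e-07), and was -0.14 ± 0.16 with SY200 (SE; edgeR adjusted p = 0.7). MEPCE fell with V50, with a log2 fold change of -1.74 ± 0.17 (SE; edgeR adjusted p = 1.45e-05). FN1 rose with V50 by 0.62 ± 0.17 on the log2 scale (SE; edgeR adjusted p = 0.0159), opposite to its fall in CDK9-targeted cells. POLR2A rose with SY200 by 1.43 ± 0.19 on the log2 scale (SE; edgeR adjusted p = 0.00196) and was -0.50 ± 0.18 with V50 (SE; edgeR adjusted p = 0.0506). All 13 mitochondrially encoded mRNAs rose with V50 (median 0.89) and 8 of 13 with SY200 (median 0.42). Over all genes 10.4% were called higher and 11.9% lower with V50, and 0.968% and 1.02% with SY200. The cytosolic ribosomal proteins, of which 4 rose and 5 fell in CDK9-targeted cells, had 71 of 76 rises with V50 (median 0.53). The cholesterol list, with 19 of 30 falls in CDK9-targeted cells, had 2 rises and 0 falls with V50 (median 0.06), and 0 of either with SY200. The times and the kind of perturbation differ between the experiments, and the difference between them was not tested.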

How the data were processed

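The deposited table holds raw counts per gene symbol (59428 entries, 33 libraries), made from 3′ QuantSeq libraries of poly(A) RNA, per the labels' protocols. The submitters' processing notes name FastQC, STAR 2.7.10a and GRCh38, but no counting tool, strand setting or annotation. The deposited counts were fitted in R 4.3.3 with edgeR 4.0.16 (TMM scaling, filterByExpr with a minimum count of 10 and a total of 15, quasi-likelihood F test) with time as a block, and p-values were adjusted by Benjamini-Hochberg over all genes tested at 0.05. Levels in CPM use the TMM-scaled library sizes. Each pair and each interaction was tested in a fit of the same 8 libraries, and the inhibitors in a fit of their 22 libraries. The fit of the main comparison, and not the other fits, was run on simulated counts with known changes. Alternatives were DESeq2 1.42.0, other scalings, no filter, other library sets and leaving out 1 library. Named genes were drawn from CDK1, CDK7 and CDK9, and from the 10 largest rises and 10 largest falls. Those rises and falls had a mean of at least 10 CPM over the 8 libraries and the sides apart at each time. Further named genes were up to 3 members of each of 29 gene lists by adjusted p, and genes marked as chosen after their values were seen. Not every gene so picked is described, and a withheld item among them is not reported here. The members and lists were chosen with earlier results of these data known. The lowest total was 16985219 counts. At these depths counting error is small for highly expressed genes, where the spread between libraries sets the precision. It weighs more in weakly expressed ones, such as the antisense genes with a median of 1.79 CPM. Positions are from GENCODE 29 (14282 of 16162 symbols placed), promoters from RefSeq.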

Additional observations from a re-analysis of the deposited data

Results flagged for a closer look

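Among the named genes, a single library stood far from the other 3 of its side in 9 of 262 groups of 4, by Dixon's test at its 95% critical value for 4 samples, which chance alone passes in about 1 in 20 groups. In CDK9-targeted cells these were the CDK9 KO 72 h library for CTD-2368P22.1 (13.6 CPM, low) and GAPDH (3122 CPM), the CDK7/9 KO 72 h library for GADD45A (57.0 CPM) and the CDK7/9 KO 96 h library for NUAK2 (1.99 CPM). In CDK9-intact cells they were the CDK7 KO 72 h library for CDK12 (141 CPM), CCN1 (1570 CPM), HSF1 (139 CPM) and HMGCS1 (72.4 CPM), and the CDK1 KO 72 h library for NELFA (24.4 CPM).

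For 26 named genes the CDK9 difference was not the same in the pairs, by edgeR's test of the interaction at an adjusted p under 0.05. The values that follow are the log2 fold change of CDK7/9 KO over CDK7 KO less that of CDK9 KO over CDK1 KO, so a positive value of a gene that fell means a smaller fall in the first of these pairs. Positive values were found for IL6 1.84, CXCL1 1.40, BIRC3 1.21, ICAM1 1.01, EGR1 0.96, LAPTM5 0.93, GADD45A 0.93, CXCL8 0.72, TNFAIP2 0.57, ISG15 0.49, FLG 1.30, CST4 0.96, ALPP 0.94, SYNPO 0.91, AQP3 0.83, PLAT 0.33, KRT8 0.32, KIF20A 0.52, NEK2 0.39, PLK1 0.36, CDC20 0.31, H2BC4 0.84, MALAT1 0.73 and CTSL 0.34. Negative values belonged to CDK1 (-0.99) and CCN2 (-0.54).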

How the results depend on the processing

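Each genotype has 1 library at each time, and time is the block of the fit. The labels give no other matching of libraries across the sides, and the main fit has no term for genotype. The 4217 calls between CDK9-targeted and CDK9-intact cells numbered 4196 with DESeq2's size factors, 4606 without a filter and 3804 by DESeq2, and 2779 to 4196 on leaving out 1 library. They numbered 12217 with libraries scaled to mitochondrial mRNAs, 1469 with CDK9 KO alone and 1426 with CDK7/9 KO alone as the CDK9-targeted side, 2718 with both empty vector libraries added, 532 at 72 h alone and 1060 at 96 h alone. The pairs had 3035 (CDK9 KO over CDK1 KO) and 2338 (CDK7/9 KO over CDK7 KO) calls by DESeq2, and 2574 to 5471 and 1552 to 4742 on leaving out 1 library. Their difference had 259 by DESeq2 and 73 to 618 on leaving out 1 library. The difference between times had 10 without a filter and 0 to 1 on leaving out 1 library. SY200 had 227 without a filter, 986 by DESeq2 and 28 with DMSO alone as the control. With CDK7 KO alone as the CDK9-intact side BIRC3 was 0.36 and EGR1 0.70, opposite in sign. Under mitochondrial scaling, which shifts all genes down, 21 of 131 named genes changed sign, as any rise smaller than that shift must: CCNL2 (-0.16), MCL1 (-0.28), TNFRSF10B (-0.20), XRCC3 (-0.11), E2F1 (-0.15), H2BC5 (-0.04), RPL15 (-0.25), MT-ND2 (-0.0014), MT-ATP6 (-0.04), MT-CO1 (-0.08), NDUFA3 (-0.20), NDUFB1 (-0.19), SLC7A11 (-0.22), DNAJB6 (-0.20), HSF1 (-0.27), SNHG6 (-0.22), CCND1 (-0.22), RBL2 (-0.15), CDKN2C (-0.33), CCNT1 (-0.05) and CCNT2 (-0.17). The cause of the differences between CDK9-targeted and CDK9-intact cells was not tested. The direction and side of the threshold held for 129 of the 131 by DESeq2, for 70 with the 72 h libraries alone and for 87 with the 96 h libraries alone.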
